A study of Homo sapiens with 4 samples.

Results

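The genes described here are 53 genes of chromosomal DNA replication. They cover the origin recognition complex, the factors that load and start the replicative helicase, the polymerases and clamp proteins of the fork, nucleosome assembly behind it, and the supply of deoxynucleotides (dNTPs). They were chosen by gene symbol from a list made with earlier results of these data known. All 53 had a probe set listed for that gene alone, out of 19775 such genes on the array. All 53 also passed the filter on low signal, which kept 12636 genes. HCT116, the established colon cancer line that gave the RNA, was serum starved for 24 h in both groups. Hypoxia cells then spent 72 h in 1% oxygen and normoxia cells the same time in 21% oxygen. Each group had 2 arrays, lettered A and B in the labels. Nothing in the labels states that the letters mark separate cultures, so p-values cover only the spread of these 4 samples, possibly a technical one, and the number of arrays limits the precision.

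Replication starts at origins bound by the origin recognition complex (ORC). In G1 phase, ORC, CDC6 and CDT1 load the ring-shaped MCM helicase onto DNA. At the start of S phase, kinases add CDC45 and the GINS complex to the MCM ring, which turns it into an active helicase, and polymerases then copy both strands with the help of the sliding clamp PCNA and its loader, replication factor C. Many of these genes are known to be transcribed in a burst before S phase by E2F transcription factors, and their RNA is low in cells that have left the cycle. The comparison asks which replication genes differed between cells kept at low and at atmospheric oxygen.

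In hypoxia 45 of the 53 genes were lower, 1 was higher and 7 were not called. A gene was called where limma gave an adjusted p (Benjamini-Hochberg) below 0.05. Among all 12636 genes tested, 22.8% were called lower and 15.3% were called higher. Both hypoxia values lay below both normoxia values in 51 of the 53 genes, against 37.9% of all genes tested. The median log2 difference of the 53 genes, hypoxia minus normoxia, was -1.66, while that of all genes tested was -0.03. Among the 45 lower genes, 40 (88.9%) differed at least 2-fold and 21 (46.7%) at least 4-fold, against 71.1% and 21.6% of all genes called lower. The 4 genes with a fitted difference of at least 8-fold were DTL, MCM5, GINS4 and RRM2. Those sizes are uncertain: the hypoxia means of DTL, MCM5 and GINS4 lay under the brightest control probe set for bacterial genes, and without hypoxia B the log2 differences were -2.78, -1.97, -2.76 and -2.47, all under 8-fold. The RNA was taken from whole cultures, in which fewer cells in S phase and less RNA per cell cannot be told apart.

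Because all arrays were brought to one scale, each direction is relative to the rest of the array. With each array scaled to its 75th percentile, 50.2% of the called genes were lower, against 59.9% with the deposited scaling. With that 75th percentile scaling, 43 of the 53 genes were called lower, against 18.9% of all genes tested. The hybridization controls had mean log2 signals of 12.90 and 12.69 in hypoxia, against 10.84 and 11.78 in normoxia. Scaling to them therefore also pulled the 2 normoxia arrays apart. Scaled in this way, the median of all genes moved to -1.51 and that of the 53 genes to -3.13. Relative to the median gene the 53 genes then stood at -1.62, against -1.63 with the deposited scaling. Such scaling shifts all genes of an array by nearly the same amount on the log2 scale. These relative values were therefore bound to be close and add no check on the decrease.

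Promoter sequences are shown first because a short word known to be bound by E2F recurred in a part of them. For 46 of the 53 genes, RefSeq promoter windows of the GRCh38.p14 build were at hand, each 300 bases long from 250 bases before the gene start to 50 bases after it. Those of MCM4, MCM5, GINS4, POLD3, RPA2, RPA3 and DNA2 were not used here. Where a gene had several windows, the first listed was read. The E2F words searched were TTTGGCGC, TTTGCCGC, TTTCGCGC and TTTCCCGC, on both strands, with overlapping matches counted separately. A match was found in 19 of the 46 windows (41.3%), against 5.17% of the windows of genes tested and 3.31% of all 35116 windows. The window of MCM6, a subunit of the helicase ring, lies at chr2:135876394-135876693 on the minus strand, and that of MCM2, another subunit, at chr3:127598161-127598460 on the plus strand. They are printed with the E2F words in capitals, 5′ to 3′.

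MCM6: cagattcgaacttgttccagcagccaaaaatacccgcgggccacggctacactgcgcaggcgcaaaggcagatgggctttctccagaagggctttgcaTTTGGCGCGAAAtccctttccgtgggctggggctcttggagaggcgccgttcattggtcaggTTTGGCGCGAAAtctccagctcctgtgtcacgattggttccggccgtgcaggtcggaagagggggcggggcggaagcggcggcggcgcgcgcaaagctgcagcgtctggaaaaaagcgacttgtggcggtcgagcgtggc

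MCM2: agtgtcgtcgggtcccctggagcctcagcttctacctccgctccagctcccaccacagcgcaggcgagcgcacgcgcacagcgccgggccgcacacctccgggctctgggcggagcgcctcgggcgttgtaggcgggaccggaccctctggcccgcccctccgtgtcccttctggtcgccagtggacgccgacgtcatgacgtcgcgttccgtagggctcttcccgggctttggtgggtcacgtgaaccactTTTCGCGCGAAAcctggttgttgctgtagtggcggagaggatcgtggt

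In both genes each capital stretch joins 2 words that overlap head to head on opposite strands, and MCM6 carries the stretch at 2 places. For other members a stretch of 40 bases around the first match shows the word in its setting in genes of loading, helicase activation, the fork and dNTP supply. The stretches lie at chr17:40287870-40287909 (CDC6, plus strand), chr16:88803738-88803777 (CDT1, plus), chr1:212035724-212035763 (DTL, plus), chr20:25407662-25407701 (GINS1, plus), chr14:49688196-49688235 (POLE2, minus), chr20:5126658-5126697 (PCNA, minus), chr13:33818078-33818117 (RFC3, plus), chr1:35769960-35769999 (CLSPN, minus) and chr18:657598-657637 (TYMS, plus).

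CDC6: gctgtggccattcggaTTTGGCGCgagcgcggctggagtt

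CDT1: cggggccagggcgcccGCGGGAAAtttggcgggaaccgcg

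DTL: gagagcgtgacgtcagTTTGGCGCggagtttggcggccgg

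GINS1: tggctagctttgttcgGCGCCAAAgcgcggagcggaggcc

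POLE2: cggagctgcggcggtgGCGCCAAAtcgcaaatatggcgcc

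PCNA: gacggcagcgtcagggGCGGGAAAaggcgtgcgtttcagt

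RFC3: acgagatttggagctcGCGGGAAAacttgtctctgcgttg

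CLSPN: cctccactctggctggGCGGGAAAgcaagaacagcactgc

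TYMS: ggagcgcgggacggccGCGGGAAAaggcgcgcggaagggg

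The 25 matches in the 19 windows began between 187 bases before and 7 bases after the gene start. Of these, 18 (72.0%) began in the stretch from 60 bases before to 10 bases after the start, a range chosen after the positions were seen, against 27.2% of the 556 matches in the windows of all genes tested. The plot of E2F word positions shows this crowding near the start, with MCM6 and POLA1 as the members whose matches all lay further upstream. Of the 19 genes with a word 16 were called lower, with a median log2 difference of -1.64, and of the 27 genes without a word 22 were called lower, with a median of -1.66. DBF4, the gene that was higher in hypoxia, had no E2F word in its window. RRM2 had none in the window read, which was the first of 2. A part of E2F in these differences was not tested. The CCAAT box, searched as CCAAT on both strands, was found in 58.7% of the members' windows and 36.9% of those of genes tested. The hypoxia response core, searched as ACGTG and GCGTG on both strands, was found in 76.1% and 62.3%. A match describes the letters in a window and does not show that a factor binds there.

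**Figure D1:**
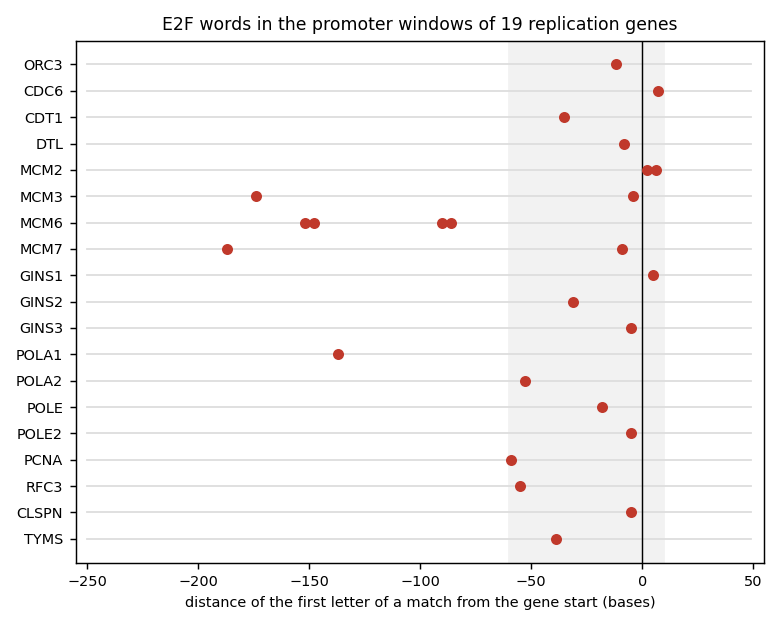
Each row is 1 of the 19 replication genes with an E2F word in its promoter window. The horizontal axis gives the distance in bases between the first letter of a match and the gene start (0, vertical line), and each point is a match. The grey band runs from 60 bases before to 10 bases after the start and holds 18 of the 25 matches.

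Values below are MAS5 signals, the authors' measure of brightness per probe set on a linear scale. They are given array by array, A before B. Each log2 difference subtracts normoxia from hypoxia after 23.7 was added to every signal, which understates the change of dim genes, and is given with its standard error (SE). Adjusted p-values are those of limma over all 12636 genes, with n = 2 arrays per group. With an array left out, a single array remained in that group and the spread came only from the other group. A call kept, gained or lost that way therefore says little about a gene. The plot of signals on each array shows all 53 genes.

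**Figure D2:**
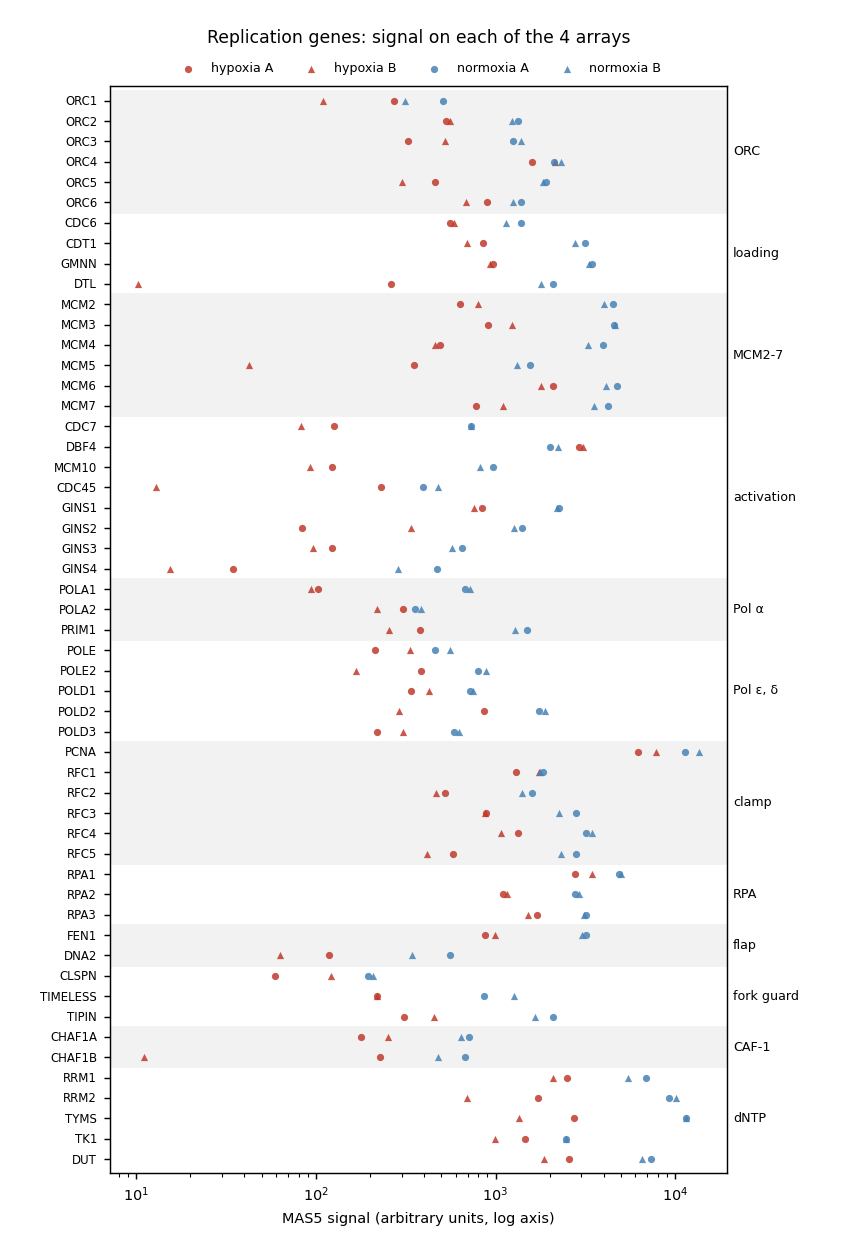
Each row is a replication gene, ordered by its step in replication (short names at the right). The horizontal axis is the MAS5 signal on a log axis, in arbitrary units. Red marks are the 2 hypoxia arrays and blue marks the 2 normoxia arrays, with circles for A and triangles for B. In 51 rows both red marks lie left of both blue marks. DBF4 shows the opposite order, and in ORC4 the groups overlap.

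ORC, the complex of 6 proteins that marks origins, was uneven across its genes: 4 were lower in hypoxia, 2 were not called and 0 were higher. ORC5 had signals of 461 and 303 in hypoxia, against 1911 and 1839 in normoxia, and fell by 2.25 on the log2 scale (SE 0.26, adjusted p = 3.07e-04). ORC3 had 325 and 519.9 in hypoxia, against 1243 and 1386 in normoxia (log2 difference -1.62 ± 0.28 SE, adjusted p = 0.00213). In both genes the groups were far apart compared with the gap between arrays of 1 group. ORC2 had 529 and 561 in hypoxia, against 1328 and 1235 in normoxia (-1.20 ± 0.22 SE, adjusted p = 0.00298). ORC6 had the smallest decrease of the 4, with 892 and 683 in hypoxia against 1392 and 1244 in normoxia (-0.74 ± 0.23 SE, adjusted p = 0.0308). ORC6 missed the threshold in 5 of 14 alternatives, such as 75th percentile scaling (-0.59, adjusted p = 0.0644), and that of ORC2 was lost without normoxia A (-1.15, adjusted p = 0.0709).

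The other two ORC genes differed in how they missed the threshold. ORC4 had 1589 and 2137 in hypoxia, against 2106 and 2316 in normoxia, so the groups overlapped (log2 difference -0.26 ± 0.20 SE, adjusted p = 0.342). ORC1, the subunit known to vary most over the human cell cycle, had 273 and 109 in hypoxia, against 507 and 313 in normoxia (-1.09 ± 0.50 SE, adjusted p = 0.115). Both ORC1 hypoxia values were lower, but arrays of the same group differed widely. ORC4 passed without hypoxia B (-0.47, adjusted p = 0.0206) but stood at -0.047 without hypoxia A (adjusted p = 0.800). ORC1 passed without hypoxia A (-1.67, adjusted p = 0.00718) but stood at -0.51 without hypoxia B (adjusted p = 0.264).

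All 4 genes that control helicase loading were lower. CDT1, which brings MCM rings to origins, had 850.2 and 696 in hypoxia, against 3167 and 2758 in normoxia (log2 difference -1.91 ± 0.20 SE, adjusted p = 2.04e-04). A second probe set of CDT1 gave a smaller decrease, -1.07. Geminin, the inhibitor of CDT1 encoded by GMNN, changed to nearly the same degree as the CDT1 set used, with 974 and 935 in hypoxia against 3439 and 3307 in normoxia (-1.80 ± 0.18 SE, adjusted p = 1.52e-04). The gene for the loader and the gene for its inhibitor were thus both lower. CDC6, the ATPase that joins ORC before MCM arrives, had 559 and 587 in hypoxia, against 1381 and 1139 in normoxia (-1.10 ± 0.23 SE, adjusted p = 0.00527), and was not called once normoxia A was left out (-0.96, adjusted p = 0.133).

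DTL, the adaptor that directs the CUL4 ubiquitin ligase to CDT1 during S phase, had the largest fitted decrease of the 53, although GINS2 (-3.66) and MCM4 (-2.81) exceeded it without hypoxia B. Its signals were 260.4 and 10.2 in hypoxia, against 2086 and 1781 in normoxia (log2 difference -4.31 ± 0.79 SE, adjusted p = 0.00285). The hypoxia arrays disagreed on its depth: leaving out hypoxia B gave -2.78 and leaving out hypoxia A gave -5.85. A further probe set of DTL showed the same split, with 506 and 11.3 in hypoxia against 1457 and 1659.7 in normoxia.

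The 6 MCM2 to MCM7 genes, which encode the ring of the replicative helicase, were all lower, with log2 differences between -3.21 and -1.19. MCM4 had 493 and 461 in hypoxia, against 3969 and 3274 in normoxia (log2 difference -2.86 ± 0.20 SE, adjusted p = 4.79e-05). MCM2 had 638 and 803 in hypoxia, against 4505 and 4027 in normoxia (-2.53 ± 0.20 SE, adjusted p = 6.49e-05), and MCM3 had 902 and 1228 in hypoxia, against 4594 and 4625 in normoxia (-2.11 ± 0.20 SE, adjusted p = 1.27e-04). For these 3 subunits the hypoxia arrays lay close together and far under the normoxia arrays. MCM7 had 773 and 1098 in hypoxia, against 4242 and 3549.9 in normoxia (-2.05 ± 0.22 SE, adjusted p = 2.26e-04). In the probe sets used, MCM6 changed least of the ring, with 2087 and 1782 in hypoxia against 4747 and 4141 in normoxia (-1.19 ± 0.18 SE, adjusted p = 0.00102). A second probe set gave -1.33 for MCM6 and -1.18 for MCM7. MCM5 had 349.8 and 42.6 in hypoxia, against 1562 and 1322 in normoxia (-3.21 ± 0.66 SE, adjusted p = 0.00504). Leaving out hypoxia B gave -1.97 and leaving out hypoxia A gave -4.46, and a second probe set gave -1.35.

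Among the genes that switch the loaded helicase on, 6 of 8 were lower, 1 was higher and 1 was not called. The 2 genes of the Dbf4-dependent kinase, which phosphorylates the MCM ring, went opposite ways. CDC7, its catalytic subunit, had 125 and 82.1 in hypoxia, against 728 and 730.3 in normoxia (log2 difference -2.58 ± 0.39 SE, adjusted p = 0.00109). DBF4, its activating subunit, had 2913 and 3083 in hypoxia, against 1997 and 2239 in normoxia (0.50 ± 0.17 SE, adjusted p = 0.0464). DBF4 was the only member called higher, and that call was weak. It was lost under 6 of its 14 alternatives, including without normoxia A (0.42, adjusted p = 0.412) and without normoxia B (0.58, adjusted p = 0.228), and scaling to the hybridization controls turned it to -0.97 (adjusted p = 0.244). DBF4 has 1 probe set, which carries the suffix for sets that match several transcripts. So do the single sets of ORC3, GMNN, MCM2, CDC45 and POLE.

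The GINS complex has 4 subunits, and all 4 genes were lower. GINS4 had 34.3 and 15.4 in hypoxia, against 471 and 287 in normoxia (log2 difference -3.04 ± 0.69 SE, adjusted p = 0.00823), and GINS2 had 83.9 and 336 in hypoxia, against 1408 and 1268 in normoxia (-2.79 ± 0.50 SE, adjusted p = 0.00255). GINS3 and GINS1 had log2 differences of -2.25 and -1.46. The hypoxia arrays of GINS2 lay far apart. Its difference was -1.92 when hypoxia A was left out and -3.66 when hypoxia B was left out. GINS4 was not called once normoxia A was left out (-2.71, adjusted p = 0.323) and without normoxia B (-3.38, adjusted p = 0.0951), and a second probe set gave -0.11. GINS3 was not called once normoxia A was left out (-2.16, adjusted p = 0.0545). With the mean of all probe sets the difference was -0.78 for GINS4 (adjusted p = 0.275) and -1.02 for GINS2 (adjusted p = 0.148). The further sets of GINS2 in that mean were both under the filter on low signal.

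MCM10, which is needed for the activated helicase to move off the origin, had 123 and 92.9 in hypoxia, against 972 and 818 in normoxia (log2 difference -2.81 ± 0.36 SE, adjusted p = 5.01e-04). CDC45, the partner of MCM and GINS in the active helicase, had 229 and 12.9 in hypoxia, against 396 and 476 in normoxia, and was not called (-2.25 ± 0.82 SE, adjusted p = 0.0579). Both CDC45 hypoxia values lay under both normoxia values, but they differed from each other by more than the nearer one differed from normoxia. The difference was -3.65 without hypoxia A (adjusted p = 1.84e-04) and -0.86 without hypoxia B (adjusted p = 0.0483), and CDC45 passed in both cases.

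**Figure D3:**
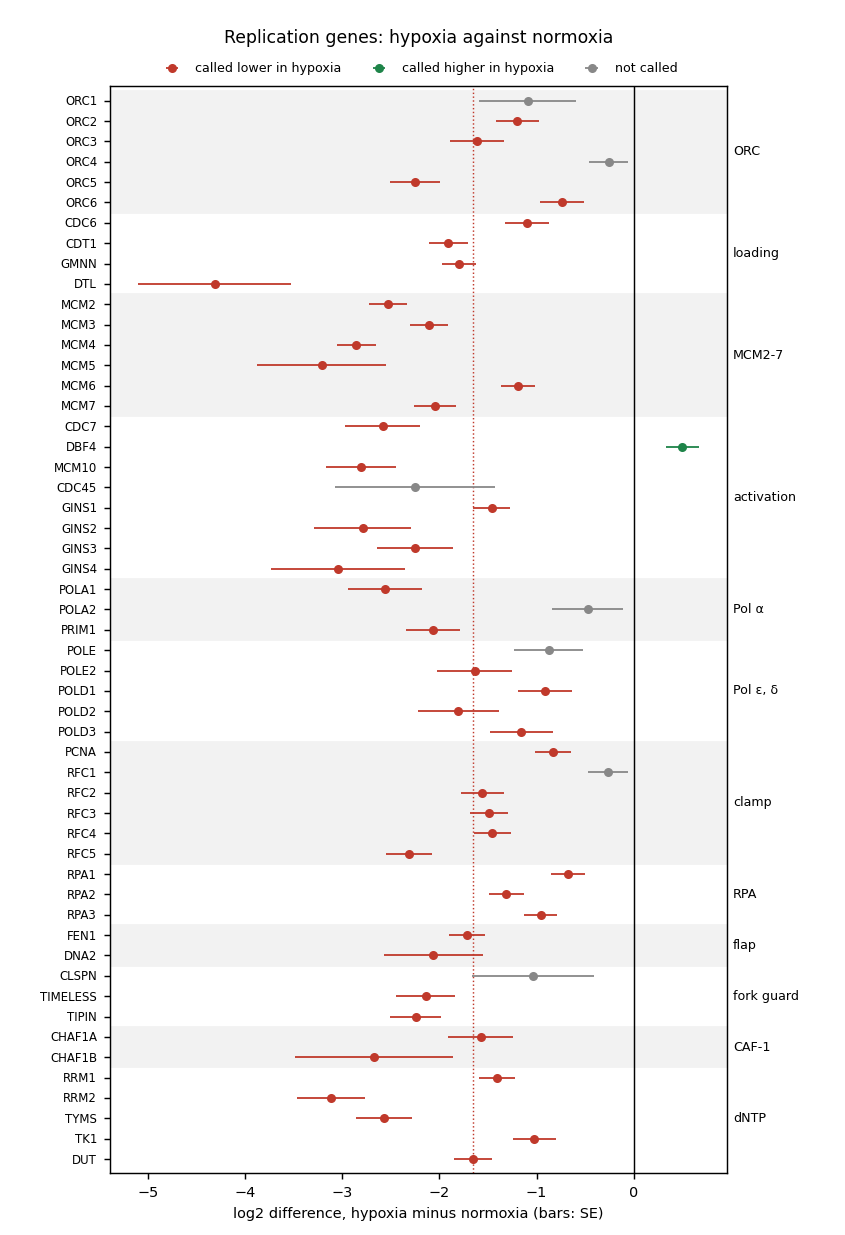
Points are log2 differences of the 53 replication genes, hypoxia minus normoxia, and bars are standard errors from limma. The vertical line marks 0 and the dotted line the median of the 53 genes, -1.66. Red points (45) were called lower, the green point (DBF4, 0.50) was called higher and the 7 grey points were not called. The longest bars belong to CDC45, CHAF1B and DTL.

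Polymerase alpha-primase makes the RNA-DNA primers from which the other polymerases start. POLA1, its catalytic subunit, had 102 and 93.9 in hypoxia, against 675 and 718 in normoxia (log2 difference -2.57 ± 0.38 SE, adjusted p = 0.00103). PRIM1, the catalytic primase subunit, had 379.7 and 254 in hypoxia, against 1494 and 1275 in normoxia (-2.07 ± 0.28 SE, adjusted p = 6.49e-04). The accessory subunit POLA2 was not called, with 305 and 219.6 in hypoxia against 356 and 382 in normoxia (-0.47 ± 0.37 SE, adjusted p = 0.340). A second probe set of POLA2 differed in sign, at 1.43, between 240.0 and 345 in hypoxia and 101 and 83.4 in normoxia.

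Polymerase epsilon copies the leading strand and polymerase delta the lagging strand. Of their 5 genes 4 were lower and 1 was not called. POLD2, an accessory subunit of delta, had 865 and 288 in hypoxia, against 1753 and 1890.0 in normoxia (log2 difference -1.81 ± 0.42 SE, adjusted p = 0.00859), with -1.05 when hypoxia B was left out. POLE2, the second subunit of epsilon, had 383 and 167 in hypoxia, against 802 and 886 in normoxia (-1.64 ± 0.38 SE, adjusted p = 0.00953), with -1.09 when hypoxia B was left out. In both genes hypoxia B was the lower array. The catalytic subunits differed less: POLD1 had 339 and 427 in hypoxia, against 724 and 748 in normoxia (-0.91 ± 0.28 SE, adjusted p = 0.0291), and POLE had 212 and 332 in hypoxia, against 462 and 558 in normoxia (-0.87 ± 0.35 SE, adjusted p = 0.0821). POLE was not called. It passed without hypoxia B (-1.17, adjusted p = 0.00875) and stood at -0.58 without hypoxia A (adjusted p = 0.108).

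POLD1 lost its call in 6 of 15 alternatives. These were quantile normalization, 75th percentile scaling, no filter, no intensity trend and leaving out either normoxia array. POLD3, a further delta subunit, had 219 and 306 in hypoxia, against 589 and 628 in normoxia (log2 difference -1.16 ± 0.32 SE, adjusted p = 0.0209). Without normoxia A the difference was -0.93 for POLD1 and -1.20 for POLD3. Without normoxia B it was -0.89 for POLD1 and -1.12 for POLD3, and neither gene was called in these fits. POLE2 was not called once normoxia B was left out (-1.57, adjusted p = 0.0632). A second probe set of POLD3 had a log2 difference of 1.98, so the 2 sets disagreed on direction.

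PCNA, the ring that holds polymerases on DNA, was among the least changed members, with 6170.3 and 7853 in hypoxia against 11396 and 13515 in normoxia (log2 difference -0.83 ± 0.19 SE, adjusted p = 0.00748). Replication factor C, the complex that opens this ring, has 5 subunits. The genes of the 4 small subunits were lower and that of the large subunit, RFC1, was not called. RFC5 had 583 and 415 in hypoxia, against 2799 and 2308 in normoxia (-2.31 ± 0.24 SE, adjusted p = 1.84e-04). RFC2 had 523 and 463 in hypoxia, against 1595 and 1401 in normoxia (-1.56 ± 0.22 SE, adjusted p = 8.95e-04). RFC3 had 888 and 872 in hypoxia, against 2795 and 2252 in normoxia (-1.49 ± 0.20 SE, adjusted p = 6.07e-04). In both genes the hypoxia arrays lay close to each other. RFC4 had 1332 and 1066 in hypoxia, against 3171 and 3450.1 in normoxia (-1.45 ± 0.19 SE, adjusted p = 5.59e-04). RFC1 had 1296 and 1736 in hypoxia, against 1836 and 1771 in normoxia (-0.26 ± 0.20 SE, adjusted p = 0.343), with all 4 values close together. It passed without hypoxia B (-0.47, adjusted p = 0.0215) and stood at -0.054 without hypoxia A (adjusted p = 0.769). For RFC5, 1 of 2 further probe sets gave -2.47 and the other 0.81.

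Replication protein A (RPA) coats single-stranded DNA in replication and in repair, and its 3 genes were all lower. RPA2 had 1096 and 1159.8 in hypoxia, against 2760.1 and 2904 in normoxia (log2 difference -1.31 ± 0.18 SE, adjusted p = 6.66e-04). RPA3 had 1703 and 1507 in hypoxia, against 3177 and 3096 in normoxia (-0.96 ± 0.17 SE, adjusted p = 0.00271), and RPA1 had 2777 and 3442 in hypoxia, against 4886 and 5016 in normoxia (-0.68 ± 0.17 SE, adjusted p = 0.0144). In all 3 the groups did not overlap. Leaving out normoxia A or normoxia B ended the calls of RPA1 (adjusted p = 0.121 and 0.142) and RPA3 (0.0662 and 0.0556).

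FEN1 and DNA2 encode nucleases that trim the flaps between Okazaki fragments on the lagging strand, and both were lower. FEN1 had 868 and 996 in hypoxia, against 3172 and 3047 in normoxia (log2 difference -1.72 ± 0.18 SE, adjusted p = 2.31e-04). DNA2 had 118 and 62.9 in hypoxia, against 561 and 342 in normoxia (-2.06 ± 0.51 SE, adjusted p = 0.0122), and was not called once normoxia A was left out (-1.72, adjusted p = 0.244).

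TIMELESS and TIPIN form a pair that travels with the fork and keeps the helicase and polymerases together, and CLSPN (claspin) carries the checkpoint signal from stalled forks. TIMELESS had 218 and 218 in hypoxia, against 862 and 1259.8 in normoxia (log2 difference -2.14 ± 0.31 SE, adjusted p = 8.46e-04). TIPIN had 309 and 452 in hypoxia, against 2086 and 1660.0 in normoxia (-2.25 ± 0.26 SE, adjusted p = 3.37e-04). The genes of the pair thus fell to a similar degree. CLSPN was dim, with 59.1 and 121 in hypoxia against 194 and 207 in normoxia, and was not called (-1.04 ± 0.63 SE, adjusted p = 0.222).

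CHAF1A and CHAF1B encode the larger subunits of CAF-1, the chaperone that places new histones on freshly copied DNA. CHAF1A had 177 and 251 in hypoxia, against 714 and 639 in normoxia (log2 difference -1.57 ± 0.33 SE, adjusted p = 0.00582), with -1.86 and -1.92 in 2 further probe sets. CHAF1B had 226 and 11.0 in hypoxia, against 679.8 and 478 in normoxia (-2.67 ± 0.82 SE, adjusted p = 0.0299). Its hypoxia arrays lay far apart, with -1.25 when B was left out and -4.10 when A was left out. CHAF1B lost its call under 6 of 14 alternatives, among them without normoxia A (-2.43, adjusted p = 0.145) and without normoxia B (-2.92, adjusted p = 0.0542). CHAF1A was not called once normoxia A was left out (-1.50, adjusted p = 0.0820).

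All 5 genes of dNTP supply were lower. Ribonucleotide reductase makes deoxynucleotides from ribonucleotides, with RRM1 as the large subunit and RRM2 as the small subunit of S phase. RRM2 had 1731 and 689 in hypoxia, against 9254 and 10119.8 in normoxia (log2 difference -3.12 ± 0.35 SE, adjusted p = 2.85e-04). RRM1 had 2499.9 and 2099.7 in hypoxia, against 6837 and 5446 in normoxia (-1.40 ± 0.19 SE, adjusted p = 5.96e-04). The small subunit gene showed the greater decrease, and a second probe set of RRM2 gave -3.72. TYMS, thymidylate synthase, had 2731 and 1352 in hypoxia, against 11530.1 and 11555 in normoxia (-2.57 ± 0.28 SE, adjusted p = 2.73e-04). DUT, the enzyme that removes dUTP, had 2573 and 1849.6 in hypoxia, against 7329.9 and 6562 in normoxia (-1.66 ± 0.20 SE, adjusted p = 3.66e-04). TK1, the thymidine kinase of S phase, had 1467 and 992 in hypoxia, against 2479.9 and 2471 in normoxia (-1.02 ± 0.22 SE, adjusted p = 0.00632), with adjusted p = 0.0712 without normoxia A and 0.0710 without normoxia B. In each of the 5 genes hypoxia B was lower than hypoxia A.

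The hypoxia arrays differed from each other more than the normoxia arrays did. In 12 of the 53 genes the hypoxia signals were more than 2-fold apart. Hypoxia A was higher in 10 of them (ORC1, DTL, MCM5, CDC45, GINS4, POLE2, POLD2, CHAF1B, RRM2 and TYMS) and hypoxia B in 2 (GINS2 and CLSPN). No member was as far apart between the normoxia arrays, where the widest ratio was 1.64, in GINS4. The median distance between arrays on the log2 scale was 0.43 in hypoxia and 0.16 in normoxia for the 53 genes, against 0.39 and 0.21 for all genes tested. Hypoxia B was the lower hypoxia array for 33 of the 53 genes and for 49.7% of all genes. Normoxia B was likewise the lower normoxia array for 32 of the 53 genes, and for 46.9% of all genes. Between the A arrays 52 of the 53 genes were lower in hypoxia, with a median of -1.57. Between the B arrays 52 were lower, with a median of -1.67. The medians of all genes tested were -0.02 and -0.05. In 52 genes the difference stayed negative whichever of the 4 arrays was left out. For the 51 genes with both hypoxia values below both normoxia values, these signs follow from that separation and add no check.

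**Figure D4:**
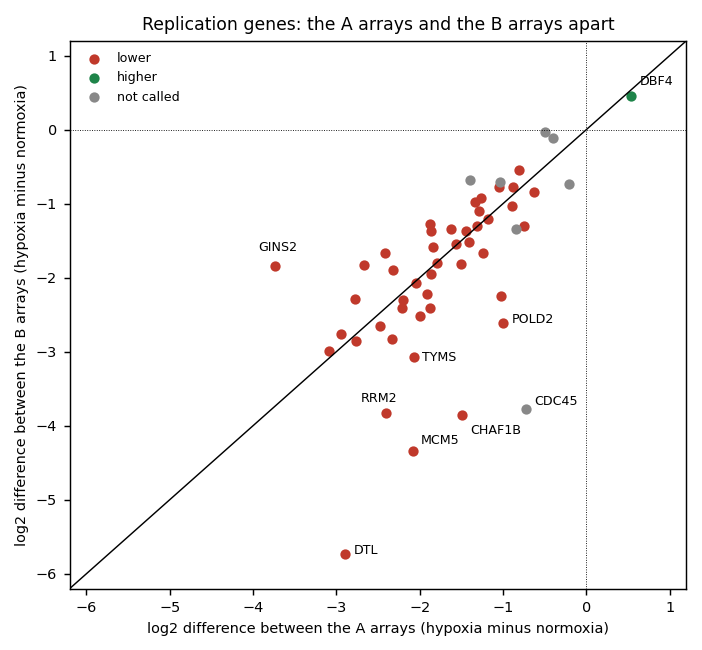
Each point is a replication gene. The horizontal axis is the log2 difference, hypoxia minus normoxia, between the A arrays and the vertical axis that between the B arrays, with a line of equality. Under the line lie 29 of the 53 points, of which 28 had the larger decrease between the B arrays and 1 is DBF4, with the smaller increase there. DTL, MCM5, CHAF1B, CDC45 and GINS2 lie farthest from the line, and DBF4 alone lies above 0 on both axes.

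Some of the decreases reach the level of background. Probe sets for Bacillus genes, which match no human gene, reached 305 on the brightest hypoxia array and 121 on the brightest normoxia array. The hypoxia mean of 14 of the 45 lower genes (31.1%) was under 305, against 27.2% of all genes called lower, so the depth of those decreases is uncertain. They were DTL, MCM5, MCM10, CDC7, GINS2, GINS3, GINS4, POLA1, POLE2, POLD3, DNA2, TIMELESS, CHAF1A and CHAF1B. No member had a normoxia mean under 121. Of the 31 lower genes in the list of related replication genes described further on, 7 also had a hypoxia mean under 305 (MCM9, WDHD1, CCNE2, SKP2, LIG1, SAMHD1 and DTYMK), and the sizes given for them are equally uncertain.

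The 53 genes were covered by 102 probe sets, and for 27 genes at least 1 further set passed the filter. Of these 34 further sets, 31 had the same sign as the set used and 3 the opposite sign, in POLA2, POLD3 and RFC5. The 4 bright sets of MCM4 all showed a decrease, of -2.86 in the set used and of -3.93, -3.89 and -2.49 in the others. For MCM10 the 2 further sets gave -3.71 and -1.33, and for DUT they gave -3.36 and -1.53, so size varied between sets more than direction did. Without the probe sets whose suffix marks a match to several transcripts or possible cross-hybridization, 37 members were tested. Of these 33 were called lower, against 20.1% of all genes tested with those sets left out.

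**Figure D5:**
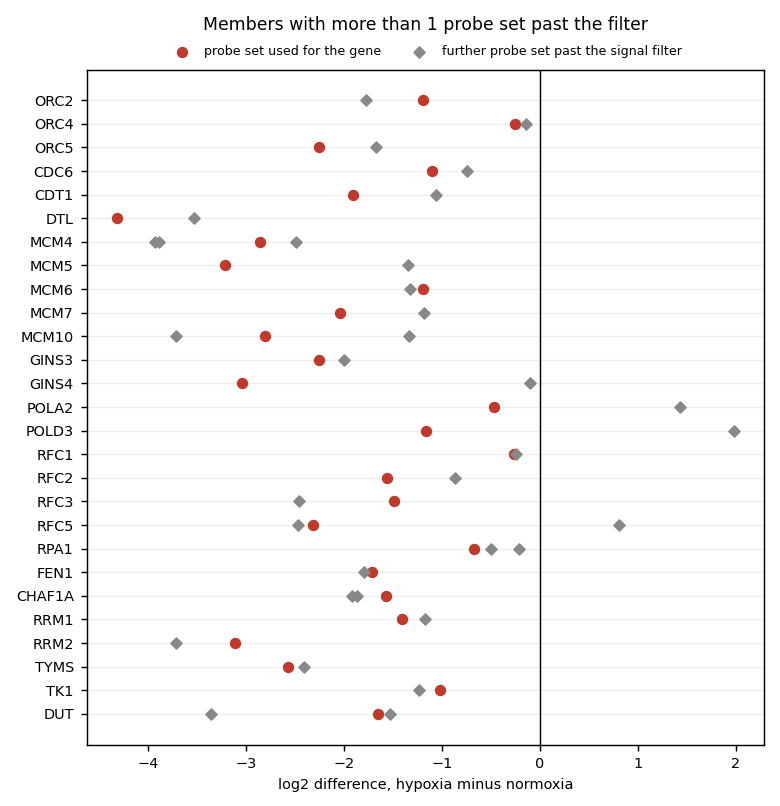
Rows are the 27 replication genes with more than 1 probe set past the filter on low signal. The horizontal axis is the log2 difference, hypoxia minus normoxia. Red circles are the probe sets used for the genes and grey diamonds the 34 further sets, of which 3 lie on the other side of 0 from the set used.

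A further list held 51 genes that act beside these in replication, of which 49 had a probe set of their own and were tested. Of these 31 (63.3%) were lower, 3 were higher and 15 were not called, with a median log2 difference of -1.24. Among other initiation factors 8 of 14 were lower and 0 were higher. The cyclin gene CCNE2 had 330.2 and 17.3 in hypoxia, against 1855 and 1504 in normoxia (log2 difference -3.81, adjusted p = 0.00552), with -2.26 without hypoxia B. Of the other cyclin genes listed, CCNA2 was lower (-1.99) and CCNE1 was not called (0.38, adjusted p = 0.341). CCNE1 had 856 and 1634 in hypoxia, against 921 and 884 in normoxia. WDHD1, a hub that ties the helicase to polymerase alpha, and SKP2, a ubiquitin ligase subunit, had differences of -2.59 and -2.40, with -1.54 for WDHD1 without hypoxia A and -1.62 for SKP2 without hypoxia B. The count of 31 was 21 without normoxia A.

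Of 16 other polymerase and fork genes 9 were lower and 1 was higher. PCLAF, a PCNA-binding protein, had 1848 and 1328 in hypoxia, against 10819.9 and 11817 in normoxia (log2 difference -2.83 ± 0.19 SE, adjusted p = 4.75e-05). RNASEH2A, the catalytic subunit of a ribonuclease that removes ribonucleotides from DNA, and LIG1, the ligase that joins Okazaki fragments, had differences of -2.51 and -2.30, and that of LIG1 was -0.99 when hypoxia B was left out and -3.60 when hypoxia A was left out. TOP1, a topoisomerase that also acts in transcription, was higher, with 10638 and 13188 in hypoxia against 6707 and 7765 in normoxia (0.71 ± 0.18 SE, adjusted p = 0.0131).

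Nucleotide supply outside the members was mixed, with 7 of 10 genes lower and 2 higher. SAMHD1, which breaks down dNTPs, had 138 and 238 in hypoxia, against 1492 and 1284 in normoxia (log2 difference -2.78 ± 0.32 SE, adjusted p = 3.22e-04). The gene of the other small subunit of ribonucleotide reductase, RRM2B, had 1632 and 1221 in hypoxia, against 5093 and 4904 in normoxia (-1.81 ± 0.19 SE, adjusted p = 2.18e-04). Both small subunit genes, RRM2 and RRM2B, were thus lower. CDA, the salvage enzyme cytidine deaminase, was higher, with 3581 and 3344 in hypoxia against 508 and 565 in normoxia (2.64 ± 0.19 SE, adjusted p = 5.50e-05), and so was the guanylate kinase gene GUK1 (1.08 ± 0.18 SE, adjusted p = 0.00172). Of 9 other genes of chromatin duplication 7 were lower and 0 higher, led by the histone chaperone genes ASF1B (-1.79), SUPT16H (-1.56) and NASP (-1.19).

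The label of the groups was checked on genes outside replication. All 6 measured genes of the hypoxia response (VEGFA, NDRG1, ADM, SLC2A1, ANKRD37 and EGLN3) were called higher. The epithelial genes EPCAM, CDH1, KRT8, KRT18 and KRT19 had signals of 4913 or more on every array, while VIL1 and LGALS4 did not exceed 181. Of the 6 epithelial genes tested, EPCAM (0.66, adjusted p = 0.0167), CDH1 (1.02, adjusted p = 0.00170) and KRT19 (0.76, adjusted p = 0.00996) were called higher. Of 7 measured markers of blood, fibroblast, endothelial and liver cells, 3 passed the filter and were tested, and 1 of these was called higher, COL1A1, with 1752 and 2162 in hypoxia against 545 and 595 in normoxia. Their summed signal was 2286 and 2749 in hypoxia, against 762 and 1230.4 in normoxia, and the other 6 markers did not exceed 223 on any array. The part of this difference in the results above was not tested.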

How the data were processed

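RNA of 2 hypoxia and 2 normoxia samples of HCT116 cells was measured on Affymetrix arrays with 54675 probe sets. The authors deposited MAS5 intensity values on a linear scale, per the submitters' processing notes (no version given). Each deposited array had a trimmed mean of 500.1 (2% removed at each end), a common scale that hides a shift shared by most genes. Probe sets listed for 1 gene (41091) were used, the one with the highest mean per gene, and genes with a mean of at least 97.4 (the median of probe set means) were tested. The signal was taken as log2(signal + 23.7), 23.7 being the 25th percentile of all values, and fitted with limma 3.58.1 in R 4.3.3 (eBayes with an intensity trend, two-sided, Benjamini-Hochberg over all 12636 genes). The script was tested on simulated data. Figures used Python 3.11.15 and matplotlib 3.10.9. Promoter words were counted in RefSeq windows. Genes named with full values are, per step of replication, up to 4 called members with the largest difference, all not called and all higher; for the further list up to 3 called genes per role, and those higher. Other genes were named after their values were seen. The members and lists were chosen with earlier results of these data known. Alternatives are a replicate block, other pseudocounts, scalings, filters, probe set choices, no trend and leaving out each array.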

Additional observations from a re-analysis of the deposited data

How the results depend on the processing

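The number of members called lower, 45 of 53, varied over 15 alternatives. In eBayes without trend it was 35, where 14.3% of all genes tested were called lower. Under hybridization control scaling it was 52, where 45.4% of all genes tested were called lower. Without normoxia A, where a single normoxia array remained, the count was below 35. The number called higher, 1 (DBF4), was 0 under hybridization control scaling, with no filter, with the mean of all probe sets, with probe sets without the _x_at or _s_at suffix (where DBF4 was not tested), and in eBayes without trend; without 1 array it ranged from 0 to 1. The number of all called genes, 4803, was 3141 in eBayes without trend and ranged from 2575 to 6257 without 1 array. The number of related genes called lower, 31, was 19 with probe sets without those suffixes, where fewer were tested, and 18 in eBayes without trend. With the letter as a replicate block, 46 members and 25.8% of all genes tested were called lower, and CDC45 passed (adjusted p = 0.00114). But the letters are not shown to pair the arrays: the B minus A differences of the groups correlated at 0.09 over genes. The sign reversed for DBF4 under hybridization control scaling (-0.97). With the mean of all probe sets it reversed for POLA2 (0.45), POLD3 (0.41), RFC1 (0.044) and CLSPN (0.13). For POLA2 it also reversed (1.43) with probe sets without those suffixes. In RFC1 (0.63) and CLSPN (0.92 and 1.32) the sets of opposite sign were all under the filter on low signal. Why the sets of POLA2 and POLD3 disagreed was not tested. Of the 766 values recomputed for single members, 696 kept sign and side of the threshold, 49 lost the call and 15 gained it. Of the 45 lower genes, 26 kept their call in every alternative that tested them, and none of the 7 genes not called kept that status and its sign in all. Genes near the Bacillus control signal are limited by signal over background.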
